A study of Mus musculus with 6 samples.

Results

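The clustered histone genes are the 70 of 53465 genes in the deposited table whose symbols run from Hist1h to Hist4h. They code for the linker histone H1 and for the core histones H2A, H2B, H3 and H4, around which DNA is wound into nucleosomes. Their mRNA was measured by poly(A)-selected RNA-seq in the mouse leukaemia line Nras(G12D)/MLL-AF9, which has a mutant Nras and the fusion of MLL with AF9 and is labelled as blood. One group of 3 libraries came from cells given 100 µM 4'-O-methylpyridoxine (OMP), an analog of vitamin B6, and the other 3 libraries came from cells given the same volume of PBS (Vehicle), both for 6 days. All 6 libraries shared the cell line and a medium of RPMI with serum, SCF, IL-3 and IL-6. The labels do not say whether the line is 1 clone, or whether replicates were separate cultures, so the p-values reflect library-to-library spread that may be technical.

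Most clustered histone genes are replication-dependent: they are transcribed in S phase, when new DNA needs new nucleosomes. Their mRNAs usually end just after a short RNA hairpin that the stem-loop binding protein (Slbp) holds, and carry no poly(A) tail. Poly(A) selection therefore recovers little of this mRNA, and what it recovers can be a polyadenylated form made from a signal farther downstream. Levels given here are levels in poly(A)-selected RNA, not of all histone mRNA. In bulk RNA, fewer cells in S phase and less histone mRNA per cell cannot be told apart.

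The hairpins of the genes that the results turn on are shown because they mark the usual end of the mRNA. Each was found by a search after the stop codon in GENCODE M21 transcripts on GRCm38. The stem had 6 base pairs, with G-T pairs allowed, and opened with GG and closed with CC. The loop had 4 bases and began with TT followed by T or C. The sequences are written 5′ to 3′ on the mRNA strand as DNA letters, with the 16 bases of stem and loop in capitals.

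Hist1h1c: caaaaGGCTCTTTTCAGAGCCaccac
Hist3h2a: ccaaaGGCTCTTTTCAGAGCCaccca
Hist1h3c: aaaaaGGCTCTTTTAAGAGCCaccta
Hist1h4i: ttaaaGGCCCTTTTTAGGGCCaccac
Hist1h4h: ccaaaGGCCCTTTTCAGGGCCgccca
Hist1h4b: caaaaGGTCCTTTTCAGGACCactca

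The hairpin of Hist1h1c lies at chr13:23739507-23739532 on the plus strand, and that of Hist1h4i at chr13:22040961-22040986 on the minus strand. Counted per gene, such a hairpin was found in 43 of the 67 protein-coding members. Counted per transcript, it was found in 0.294% of 66669 transcripts of other coding genes. The 43 members held 6 different hairpins, and 25 of them had the one printed for Hist1h1c and Hist3h2a. Hist1h3c shares its hairpin with 5 other members, 6 in all, and Hist1h4h belongs to a set of 7. No match was found in the annotated transcripts of Hist2h2be and Hist1h2bc, which says only that these letters are not in that window.

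Of the 70 members, 43 had at least 1 read in some library and 27 were listed at 0 in all 6. Above 0 were 5 of 6 H1 genes, 7 of 20 H2A genes, 11 of 19 H2B genes, 10 of 12 H3 genes and 10 of 13 H4 genes. Members with a read numbered 29, 33 and 33 in the Vehicle libraries and 18, 26 and 21 in the OMP libraries. Library totals recovered from the table were 3737843 to 4247619 reads with Vehicle and 3494986 to 3720117 with OMP. The deeper Vehicle libraries could thus show more members. At these totals, 3 reads on a transcript of 1 kb correspond to 0.706 to 0.858 RPKM (reads scaled to transcript length and library total). Reads are not independent molecules, and all intervals below cover counting error only.

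Summed over the members, clustered histone RNA was lower in OMP-treated cells. The summed RPKM was 41.5, 43.6 and 39.9 in the Vehicle libraries and 22.4, 26.8 and 20.4 in the OMP libraries. The groups did not overlap, with 41.7 ± 1.82 against 23.2 ± 3.29 (SD, n = 3 each). These sums rest on 609 Vehicle reads and 267 OMP reads. Scaled to library totals (RPM, with no scaling to length), Vehicle held 2.03 times as many (95% interval 1.76 to 2.36, exact binomial). The reads were concentrated in few genes: 3 members gave 55.1% of them and 5 gave 69.1%.

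By histone type, H1 and H2B RNA were separated most clearly between the groups. Hist1h1c held 156 of the 191 Vehicle reads and 46 of the 62 OMP reads of H1. Hist2h2be held 143 of 245 and 51 of 109 reads of H2B, so both sums lean on these genes. Summed H1 RPKM was 10.5 ± 0.448 with Vehicle and 3.81 ± 0.762 with OMP, and summed H2B RPKM was 13.3 ± 1.34 and 6.92 ± 0.710. H4 summed to 9.98 ± 1.47 and 6.80 ± 1.25 RPKM, and its libraries came close, with 8.49 RPKM in Vehicle replicate 1 and 8.18 in OMP replicate 1. H2A summed to 2.36 ± 0.313 and 1.26 ± 0.953, and H3 to 5.55 ± 0.592 and 4.41 ± 2.73 RPKM (SD, n = 3 throughout). For H2A the summed RPKM of OMP replicate 2, 2.36, was inside the Vehicle range, and for H3 it was 7.55, above every Vehicle library. The H2A overlap depends on the measure. In RPM the H2A groups were apart, at 3.06 to 4.01 with Vehicle and 0.806 to 1.97 with OMP.

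**Figure D1:**
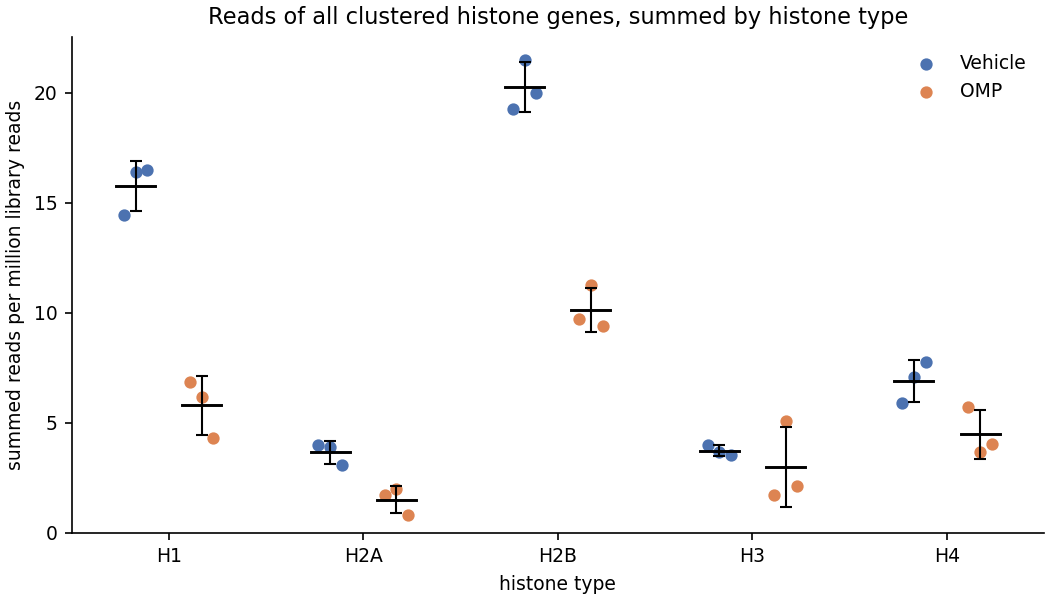
Summed reads of the clustered histone genes in RPM (y axis) for each histone type (x axis). Points are the 3 libraries of each group and bars are mean ± SD. H1 fell from 14.5 to 16.5 in Vehicle to 4.30 to 6.87 with OMP, while the H3 groups overlap. Most H1 reads in both groups were those of Hist1h1c.

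The ratio of Vehicle to OMP in RPM was 2.75 for H1 (95% interval 2.05 to 3.72; 191 and 62 reads) and 2.0 for H2B (1.59 to 2.54; 245 and 109 reads). It was 2.45 for H2A (1.36 to 4.66; 44 and 16 reads) and 1.56 for H4 (1.08 to 2.27; 84 and 48 reads). For H3 the interval included 1, with a ratio of 1.25 (0.779 to 2.04; 45 and 32 reads). The 32 OMP reads of H3 fell as 6, 18 and 8 over the replicates, and the 16 of H2A as 6, 7 and 3. Without OMP replicate 2 the log2 ratio of summed RPKM, OMP over Vehicle, went from -0.33 to -0.97 for H3 and from -0.90 to -1.72 for H2A. Over the 2 tested H3 members alone it had the other sign, at 0.20. For H2A, OMP replicate 2 held 1 read each of Hist1h2ab, Hist1h2ai and Hist2h2ac. These transcripts have 393 to 520 bases, so each single read gave 0.541 to 0.716 RPKM. The differences between types were not tested.

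A filter of at least 1 RPKM in at least 3 of the 6 libraries left 8 members, which were tested with limma over 11020 genes. Of these 8, 3 fell, 0 rose and 5 were not called at an adjusted p of 0.05. In the same fit 27.5% of all genes tested were called lower and 15.4% higher, with a median log2 fold change of -0.09. The median of the 8 members was -0.55. Groups did not overlap, lower with OMP, for 4 of the 8 members and for 34.6% of all genes tested. Hist1h4h passed the filter through its Vehicle libraries alone, so it could only be lower with OMP. It is among the 4 without overlap and is counted in the median of -0.55. Without it, the middle value of the other members was that of Hist1h2bc, -0.19.

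**Figure D2:**
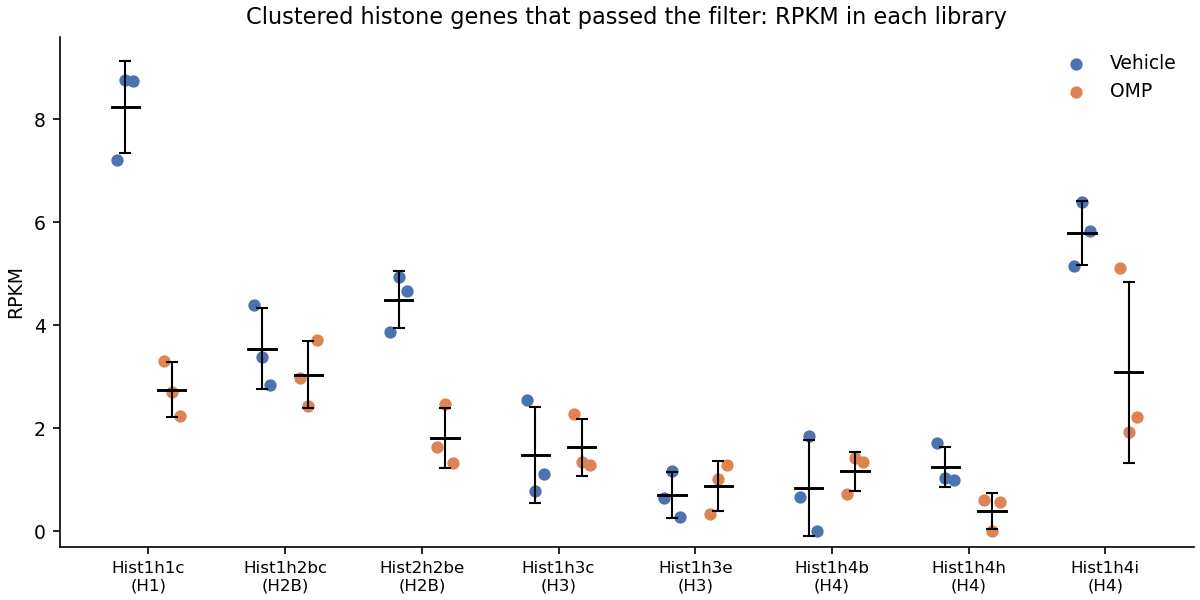
RPKM (y axis) of the 8 members tested (x axis) in each library. Points are single libraries and bars are mean ± SD of the 3 libraries of a group; Hist1h1c and Hist2h2be stand well apart between groups, while Hist1h2bc and the H3 genes overlap.

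Hist1h1c codes for the H1.2 linker histone, which binds DNA where it enters and leaves the nucleosome, and was the most abundant clustered histone gene in Vehicle cells. It had 7.20, 8.77 and 8.75 RPKM with Vehicle and 3.30, 2.71 and 2.24 RPKM with OMP. All 3 Vehicle libraries lay above all 3 OMP libraries, with 42, 56 and 58 reads against 18, 15 and 13. The log2 fold change of RPKM + 0.5 was -1.44 ± 0.15 (SE; limma adjusted p = 0.000159), a 2.70-fold fall. The gene lies at chr13:23738808-23740367 (ENSMUSG00000036181, plus strand), and 91.5% of the 50-base windows of its transcript were found in no other gene.

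Upstream of Hist1h1c, RefSeq on GRCm38.p6 gives the following 120 bases at chr13:23738687-23738806, plus strand, shown because this was the member with the smallest p. Capitals mark CCAAT, the box that the factor NF-Y binds.

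Hist1h1c upstream: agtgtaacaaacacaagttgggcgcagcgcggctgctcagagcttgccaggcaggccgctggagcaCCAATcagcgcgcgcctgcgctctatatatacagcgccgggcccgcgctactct

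The other H1 genes stayed under the filter. Hist1h1a, an H1 gene and the one of highest mean level among these, had 2, 2 and 3 reads with Vehicle and 2, 0 and 2 with OMP. Hist1h1b had 8 and 2 reads in all, Hist1h1d 9 and 5, and Hist1h1e 11 and 5, in Vehicle and OMP. The mean RPKM of each of these 4 was lower with OMP, but only for Hist1h1b did the groups not overlap, and at these counts none could be told from counting error by itself. Hist1h1e shares 496 bases of the same strand with Hist1h2be, so their reads cannot be fully separated. Hist1h1t, the testis H1, was at 0 although every window of its transcript (100%) was found in no other gene.

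Hist2h2be codes for an H2B protein and was, with Hist1h2bc, one of the 2 H2B genes tested. It had 3.88, 4.94 and 4.67 RPKM with Vehicle and 1.64, 2.47 and 1.33 RPKM with OMP. The groups did not overlap, at 143 reads against 51. The log2 fold change was -1.13 ± 0.21 (SE; limma adjusted p = 0.00272), a 2.20-fold fall. The gene lies at chr3:96221119-96223738 (ENSMUSG00000068854, plus strand) and its transcript runs 2192 bases past the stop codon.

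Hist1h2bc, the other H2B gene at this level, was not called. It had 4.40, 3.38 and 2.85 RPKM with Vehicle and 2.97, 2.44 and 3.72 RPKM with OMP. The groups overlapped, and the log2 fold change was -0.19 ± 0.20 (SE; limma adjusted p = 0.471). Its read ratio of Vehicle over OMP was 1.15 with a 95% interval of 0.737 to 1.81, against 2.5 (1.80 to 3.51) for Hist2h2be. The intervals of the 2 H2B genes touch, and the difference between them was not tested.

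The remaining 9 H2B genes above 0 had 1 to 27 reads each. The highest per length was Hist1h2bm, with 4, 1 and 1 reads with Vehicle and 0, 1 and 1 with OMP. Hist1h2bg had 1, 2 and 4 Vehicle reads and 0 OMP reads. It was named after its values were seen, because a fit without the filter called it (log2 fold change -1.43 ± 0.30, limma adjusted p = 0.0155). With every OMP library at 0, the size of that fold change depends on the pseudocount. The OMP group then shows no spread, so the SE and p-value cannot be relied on either.

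H4 genes gave 3 of the tested members. Hist1h4i had 5.15, 6.39 and 5.83 RPKM with Vehicle and 5.12, 1.94 and 2.22 RPKM with OMP. OMP replicate 1, at 13 reads, was next to Vehicle replicate 1, at 14 reads, while the other OMP libraries had 5 and 6. The log2 fold change was -0.91 ± 0.29 (SE; limma adjusted p = 0.0335), a 1.88-fold fall. That call did not hold without a filter (adjusted p = 0.0997), after quantile normalization (0.0580), or without Vehicle replicate 1, 2 or 3 (0.0565, 0.0918 and 0.0783). It was also lost without OMP replicate 2 or 3 (0.0966 and 0.104). The gene lies at chr13:22040636-22041362 (ENSMUSG00000060639, minus strand).

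Hist1h4h and Hist1h4b, the other H4 genes tested, rested on few reads. Hist1h4h had 3, 2 and 2 reads with Vehicle and 1, 0 and 1 with OMP (log2 fold change -1.03 ± 0.41, SE; limma adjusted p = 0.0721). Hist1h4b had 1, 3 and 0 reads with Vehicle and 1, 2 and 2 with OMP (0.55 ± 0.54; limma adjusted p = 0.439). Below the filter, Hist1h4d held 10 and 7 reads, and Hist1h4f had 0 reads with Vehicle and 1, 3 and 0 with OMP, the 3 falling in OMP replicate 2.

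Both H3 genes tested had similar levels in the groups, within wide errors. Hist1h3c had 6, 2 and 3 reads with Vehicle and 5, 3 and 3 with OMP, or 1.48 ± 0.939 and 1.63 ± 0.555 RPKM (SD, n = 3; log2 fold change 0.18 ± 0.36, limma adjusted p = 0.722). Hist1h3e had 2, 4 and 1 reads against 1, 3 and 4 (0.20 ± 0.43; limma adjusted p = 0.730). Under the filter, Hist1h3a had 3 Vehicle reads and 6 OMP reads, 5 of them in OMP replicate 2. Hist1h3d had 3, 2 and 3 Vehicle reads and 0 OMP reads. It was named after its values were seen, because a fit without the filter called it (-1.04 ± 0.17, limma adjusted p = 0.00521). The limits given for Hist1h2bg on size, SE and p-value apply here too.

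No H2A gene passed the filter. The highest was Hist3h2a, at chr11:58954685-58956830 (plus strand), with 1.62, 1.71 and 0.878 RPKM with Vehicle and 0.800, 0.394 and 0.251 RPKM with OMP. Its groups did not overlap, at 36 reads against 11, a ratio of 2.92 (95% interval 1.45 to 6.36). It lies within Trim17 on the same strand, which had 0 and 1 reads. The other 6 H2A genes above 0 held at most 4 reads each.

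Across all types, 35 members were above 0 but not tested. Their mean RPKM was lower with OMP for 26 and higher for 9, against 48.4% lower among the 8950 genes of the table that were above 0 and under the filter. For 4 of the 35, Hist1h1b, Hist3h2a, Hist1h2bg and Hist1h3d, the groups did not overlap, lower with OMP. Over the 8950 genes this was so for 4.16%. For 0 of the 35 were the groups apart in the other direction, against 5.39% of those genes. Reads were seen with Vehicle only for 9 members and with OMP only for 3, and 13 members had under 4 reads in all 6 libraries together. The Vehicle libraries were deeper, and the matching shares over the 8950 genes were not counted. Without the 3 members called lower, the other 67 still held 259 Vehicle and 146 OMP reads. Their read ratio was 1.58 (95% interval 1.29 to 1.95).

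**Figure D3:**
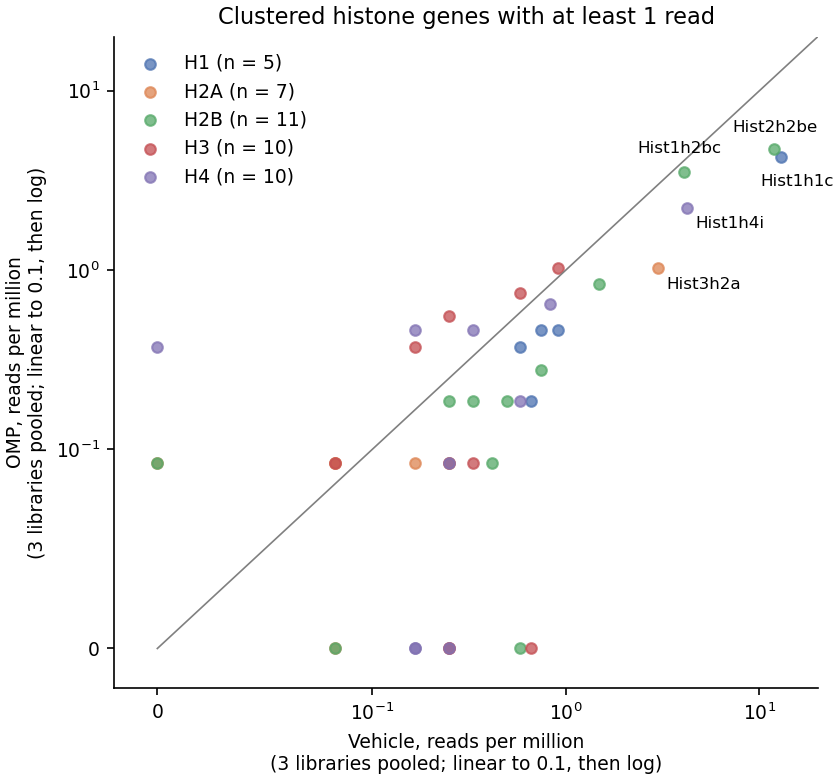
RPM in OMP (y axis) against Vehicle (x axis) for the 43 members with at least 1 read, 3 libraries pooled, on axes that are linear to 0.1 and logarithmic above, coloured by histone type; members with equal counts lie on one another. Hist1h1c and Hist2h2be lie farthest to the right and below the line of equality, and 9 members lie at 0 with OMP.

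The 27 members at 0 were 3 pseudogenes (Hist1h2aj, Hist1h2al and Hist3h2bb-ps) and 24 coding genes. The count of 0 allows up to 0.131 RPM over all libraries. Many of these genes have near-identical copies, and how reads that fit several genes were counted is not given in the sources used here. Hist2h2aa1, Hist2h2aa2, Hist2h2bb, Hist2h3b and Hist2h3c1 also lie within the span of another annotated gene. Windows were compared with other genes on either strand, so such overlap can also lower the unique share. A median of 12.9% of 50-base windows was found in no other gene for the 24 coding members at 0, against 56.2% for the 43 above 0. Under 20% of windows were unique for 14 of the 24 and for 5 of the 43. The 6 coding members at 0 with over 50% unique windows were Hist1h1t, Hist1h2aa, Hist1h2ba, Hist1h2bp, Hist3h2ba and Hist1h4a. The parts that read sharing and overlap play in the zeros were not tested.

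Levels also differed with the annotated 3′ end. Of the coding members, 22 had at least 300 bases after the stop codon, a threshold chosen after the data were seen, and 19 of these were above 0. They held 84.6% of the coding members' reads, with a median level of 0.285 and a maximum of 5.50 RPKM over the 6 libraries. The 45 members with shorter ends held 15.4%, with 24 above 0, a median of 0.114 RPKM and a maximum of 1.56 RPKM. The shares of reads are not scaled to length, so longer transcripts gain more reads at the same level. Hist1h1c, Hist2h2be and Hist1h2bc, all with long ends, gave 55.1% of all member reads. The median share of unique windows was 75.3% for long ends and 35.2% for short ends, so length of the end and uniqueness moved together.

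Hist1h1c runs 880 bases past its stop codon and 840 bases past its hairpin, and has AATAAA, the common poly(A) signal, in its last 50 bases. Hist2h2be has the same signal there, and Hist1h4i, with 376 bases after the stop, has ATTAAA. The signal was not particular to called or high members. Hist1h4h, not called, also has ATTAAA there, and Hist1h2bc, among the highest, has neither. Hist1h1t, Hist1h4a and Hist3h2ba have AATAAA but were at 0. Hist1h3c, Hist1h4h and Hist1h4b run only 114, 93 and 77 bases past the stop. Long annotation was not enough for a high level: Hist1h1d has 4931 bases after the stop codon but a mean of 0.0988 RPKM with Vehicle, from 9 reads over a transcript of 7425 bases. The Vehicle-to-OMP read ratio was 2.14 (95% interval 1.82 to 2.52) for the long ends and 1.57 (1.09 to 2.27) for the short ends, and these intervals overlap.

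**Figure D4:**
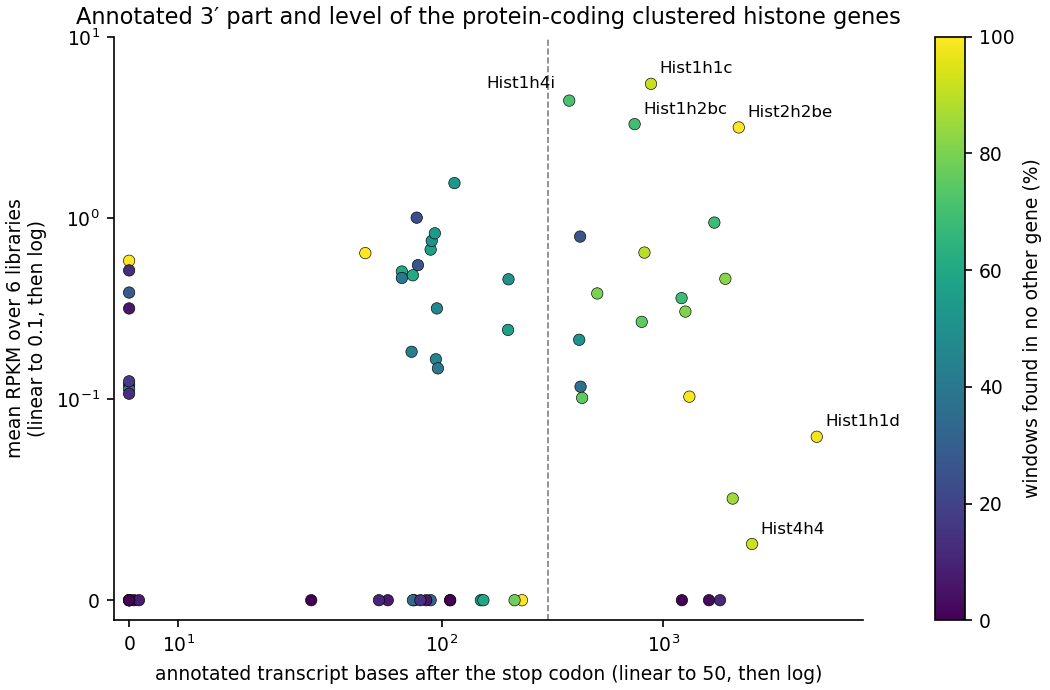
Mean RPKM over the 6 libraries (y axis) against annotated bases after the stop codon (x axis) for the 67 coding clustered histone genes, both axes linear near 0 and then logarithmic, coloured by the percent of 50-base windows found in no other gene. Each point is 1 gene and the dashed line marks 300 bases; Hist1h1c, Hist2h2be, Hist1h2bc and Hist1h4i are the highest and all have over 300 bases, while other genes with long ends stay low.

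Many H2A and H2B genes sit head to head and share the DNA between their starts. In 14 such pairs the starts were under 400 bases apart, and 9 pairs had any read. The region between Hist2h2ac and Hist2h2be, at chr3:96220881-96221118 on GRCm38.p6, is shown from the plus strand because Hist2h2be, on one side of it, was called lower. Capitals mark the CCAAT box, the TATAAA box and the octamer ATTTGCAT, which the factor Oct-1 binds, on either strand.

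Between Hist2h2ac and Hist2h2be: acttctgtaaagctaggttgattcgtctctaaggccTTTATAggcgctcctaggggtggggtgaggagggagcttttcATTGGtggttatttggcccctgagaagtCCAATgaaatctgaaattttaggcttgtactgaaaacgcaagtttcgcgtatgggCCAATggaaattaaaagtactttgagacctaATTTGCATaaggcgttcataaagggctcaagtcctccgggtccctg

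These 238 bases hold CCAAT 3 times, TATAAA 1 time and the octamer 1 time. On the left side Hist2h2ac had a mean of 0.166 RPKM over the 6 libraries, and on the right side Hist2h2be had 3.16 RPKM. Hist1h2ac and Hist1h2bc, another pair, had 0.0505 and 3.29 RPKM. In both pairs the H2B gene was the higher one per length. In the pair of Hist3h2a with the pseudogene Hist3h2bb-ps the H2A gene was the higher one, at 0.942 RPKM against 0.

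RefSeq promoters, taken here as the 250 bases upstream of the start, matched 61 members. On either strand CCAAT was in 82.0% of them and in 34.5% of the promoters of 27025 genes, TATAAA in 47.5% and 13.0%, and ATTTGCAT in 21.3% and 1.6%. CCAAT was in all promoters matched for H1 (6), H2A (17) and H2B (16), in 8 of 10 for H3 and in 3 of 12 for H4. The octamer was in 7 of the 17 H2A and 6 of the 16 H2B promoters and in 0 of the H1, H3 and H4 promoters. Paired genes share much of this DNA, so the promoters are not independent, and a match is a description of the letters and not a bound site.

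Histone genes outside the clusters have mRNAs that are mostly polyadenylated and made throughout the cell cycle. They gave most of the histone signal in this poly(A)-selected RNA. The shares below are therefore not shares of all histone mRNA. The clustered genes were 3.08% to 3.29% of the summed histone RPKM in the Vehicle libraries and 2.25% to 2.76% in the OMP libraries. Of 11 listed genes 9 were tested, of which 7 fell and 0 rose, where 27.5% of all genes tested fell and 15.4% rose. H1f0, the linker histone of non-dividing and differentiating cells, had 186.1, 188.0 and 192.7 RPKM with Vehicle and 69.8, 78.3 and 77.1 RPKM with OMP. It fell 2.51-fold (log2 fold change -1.33 ± 0.05, limma adjusted p = 6.25e-07), and the groups were far apart. H1f0 made up 93.7% to 95.9% of H1 RPKM in all 6 libraries. Clustered H1 genes were a small part of the H1 signal left by poly(A) selection in both groups. Their part in all H1 mRNA was not measured.

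Among the core histone variants, H2afx, whose phosphorylated form marks DNA breaks, fell 1.70-fold from 111.1 ± 10.9 to 65.1 ± 6.96 RPKM (limma adjusted p = 0.000281). H2afz, found at gene starts, fell 1.25-fold from 332.4 ± 23.4 to 265.6 ± 15.5 RPKM (limma adjusted p = 0.00312). The replacement histone H3.3 is made from H3f3a and H3f3b. H3f3a fell 1.26-fold (limma adjusted p = 0.00577), and H3f3b, at 231.5 ± 8.16 and 236.4 ± 8.85 RPKM (SD, n = 3), was not called (log2 fold change 0.03 ± 0.04, limma adjusted p = 0.588), with a negative sign under TPM rescaling and quantile normalization.

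**Figure D5:**
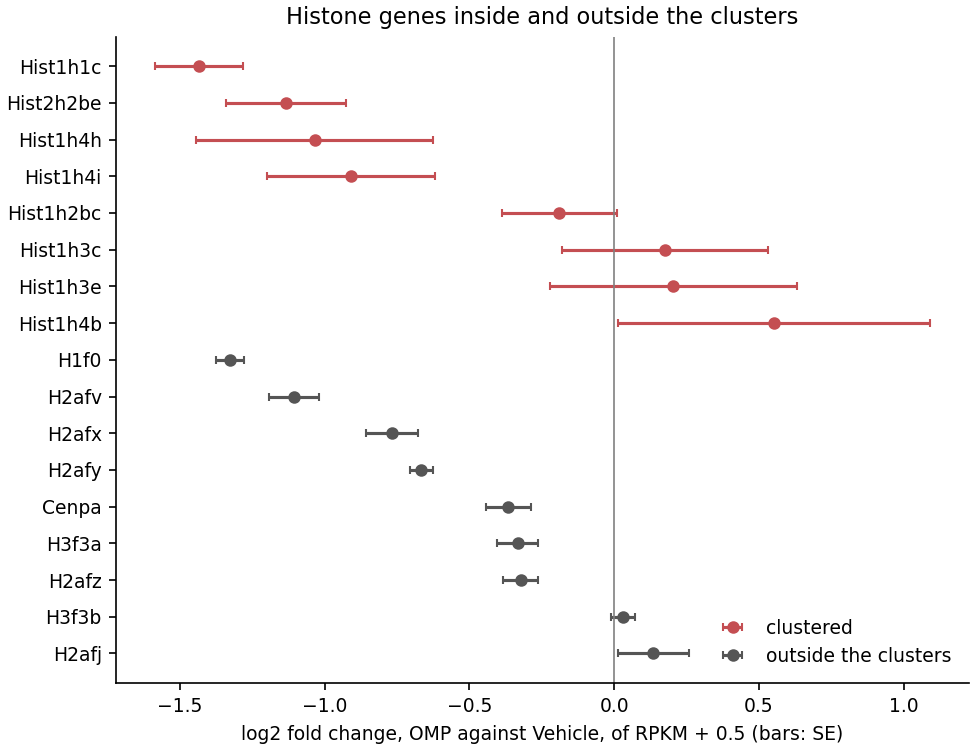
Log2 fold change of RPKM + 0.5, OMP against Vehicle (x axis), with its standard error, for the histone genes tested inside the clusters (8 genes) and outside them (9 genes). Hist1h1c and H1f0 lie farthest to the left, H3f3b lies near 0, and the error bars are widest for the low clustered genes.

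Of 24 genes tested that make and process histone mRNA, 5 fell, 2 rose and 17 were not called, with a median log2 fold change of -0.04. Neither count stood above the shares over all genes tested, 27.5% lower and 15.4% higher. Slbp, which binds the hairpins shown above, was at 39.8 ± 1.59 and 35.9 ± 1.69 RPKM (log2 fold change -0.15 ± 0.06, limma adjusted p = 0.0598). Npat, the activator of histone gene transcription, was at 9.64 ± 0.999 and 8.38 ± 0.738 RPKM (limma adjusted p = 0.173). Casp8ap2, a component of the histone locus body, fell 1.62-fold (limma adjusted p = 0.000612). Cdk2 and Ccne1, the kinase and cyclin that phosphorylate Npat, fell 1.58-fold and 1.68-fold.

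Among 17 genes of histone mRNA tailing and decay, 4 fell and 2 rose, again not above the 27.5% and 15.4% over all genes tested. Exosc10, a nuclease of the nuclear exosome, rose 1.32-fold (limma adjusted p = 0.000292), and Papd4, a cytoplasmic poly(A) polymerase, fell 1.27-fold (limma adjusted p = 0.00224). Of 21 histone chaperone and import genes 9 fell and 5 rose, beside the same shares of 27.5% and 15.4%. Asf1b, which hands H3 and H4 to the assembly factors, fell 2.21-fold from 61.4 ± 2.47 to 27.6 ± 1.13 RPKM, and Hjurp, the chaperone of Cenpa, fell 1.76-fold.

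Other measures moved with the fall in clustered histone RNA, and their part in it was not tested. Of 24 S phase genes tested 22 fell and 0 rose, with a median log2 fold change of -0.67, beside 27.5% lower and 15.4% higher over all genes tested. Rrm2, a subunit of ribonucleotide reductase, fell 2.46-fold and Cdt1, a replication licensing factor, fell 2.14-fold. RNAs without a poly(A) tail are a check on carry-over through the selection, and those listed summed to 18.1 to 28.6 RPKM with Vehicle and 35.1 to 61.7 RPKM with OMP. Of their 21 gene rows 14 were at 0, 3 were tested and 2 rose. Most of the sum was 1 gene. Rn7sk, a small nuclear RNA that holds the kinase P-TEFb inactive, rose 2.11-fold (limma adjusted p = 0.00199) with 13.7, 19.2 and 16.4 RPKM against 47.5, 29.8 and 30.1 RPKM. Rnu73b, the other one called higher, rested on 1, 1 and 1 reads with Vehicle and 3, 1 and 5 with OMP, and its call was lost under 8 alternatives.

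The leukaemia line carried its myeloid markers, with 12 genes tested, a summed level of 5508 to 5605 RPKM in Vehicle and 3869 to 4093 RPKM in OMP, and 0 of the listed rows at 0. The markers did not move as one: 6 fell, 3 rose and 3 were not called, beside 27.5% lower and 15.4% higher over all genes tested. Mpo, Elane, Prtn3 and Ctsg, which code for granule enzymes, and the receptor genes Kit and Csf3r fell, Mpo 4.14-fold. Ptprc, Itgam and Spi1, which code for CD45, CD11b and PU.1, rose 1.30-fold, 1.33-fold and 1.13-fold. Markers of other blood cells were low. Erythroid markers summed to at most 0.959 RPKM in any library with 5 of 9 at 0, and B cell markers to at most 0.587 RPKM with 4 of 6 at 0. T and NK cell markers summed to 2.58 to 4.04 RPKM with 6 of 8 at 0. Megakaryocyte and mast cell markers summed to 1.32 to 1.61 RPKM with Vehicle and 3.81 to 5.04 RPKM with OMP, with 4 of 9 at 0, and their part in the results was not tested.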

How the data were processed

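Poly(A)-selected RNA of 6 libraries was sequenced after TruSeq preparation, per the labels' protocols. The authors deposited RPKM values, and the tools in the submitters' processing notes are STAR 2.5.3a, featureCounts 1.6.3, Trimmomatic 0.36 and FastQC 0.11.5 (build mm10, GRCm38). For read length, strand setting and reads that fit several genes, the treatment is not given in the sources used here.

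RPKM steps gave whole reads for 100% of the values of 19970 genes (relative tolerance 1e-06), and with them library totals. The comparison used limma 3.58.1 in R 4.3.3 on log2(RPKM + 0.5), with an intensity trend and no covariates, for genes of at least 1 RPKM in at least 3 of the 6 libraries. Tests were two-sided, with Benjamini-Hochberg adjustment over all 11020 genes tested and 0.05 as threshold. Fold changes on this scale understate the change of low genes. Summed RPKM and read ratios have no test.

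Members are rows whose symbol begins with Hist1h to Hist4h. The members, lists and rules were chosen with earlier results of these data known. Named were all tested members (at most 4 per type), the highest untested member of each type, 7 related genes by name, and up to 2 genes of smallest p per other list. Other genes named, such as Hist1h4f and Hist1h1b, fall outside these rules. They should be read as named after their values were seen, which is stated in place only for Hist1h2bg and Hist1h3d. Transcript features came from GENCODE M21 and promoters from RefSeq. Alternatives were other pseudocounts, filters, scalings, a robust prior, limma-voom on recovered reads, the replicate block and leaving out each library. The procedure was run on data simulated with a preset spread between libraries, not one estimated from these libraries. No result here rests on that run. Libraries of a group differed by more than sampling noise, so none was counted as a duplicate.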

Additional observations from a re-analysis of the deposited data

How the results depend on the processing

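Hist1h1c and Hist2h2be were called lower under every alternative in which they were tested; Hist2h2be was not tested at a filter of 5 RPKM. Members called numbered 2 to 4, and all genes called 3968 to 5336, against 4735. Over 26 named genes and all alternatives, 385 of 409 values kept direction and side of the threshold, 15 lost the call (7 for Hist1h4i, 8 for Rnu73b), 2 gained it (both Slbp) and 7 changed sign. Signs changed when single libraries were left out for 3 members of few reads: log2 fold changes ran from -0.0916 to 0.54 for Hist1h3c, from -0.0696 to 0.52 for Hist1h3e and from -0.0249 to 1.09 for Hist1h4b. H3f3b gave a log2 fold change of -0.0540 under TPM rescaling and -0.0145 under quantile normalization. The H2B log2 ratio of summed RPKM was -0.94, and -0.73 over the H2B members tested only. The H3 ratio was -0.33 and turned to 0.20 over the H3 members tested. OMP replicate 2 carried much of the summed OMP RPKM of H3 and H2A. For H2A its reads were 7, against 6 in OMP replicate 1. Leaving out single libraries gave -0.97 to -0.06 for H3 and -1.72 to -0.58 for H2A, the lowest without OMP replicate 2. Over all genes tested, 1702 were called higher and 3033 lower, against 2366 and 2236 with median-of-ratios scaling, 2224 and 2337 with quantile normalization, and 1215 and 3973 with TPM rescaling. With the replicate block, 4445 genes and 3 members were called. Same-numbered libraries did not deviate together (correlations -0.0024, 0.015 and 0.0069), so the numbers were not used to pair them, and libraries correlated best with another number. Depth limits all members below about 1 RPKM.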
